A study of Canis lupus familiaris with 12 samples.

Results

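The primary cilium assembly genes were followed in Madin-Darby canine kidney (MDCK) cells, a dog cell line derived from renal tubules, grown as cysts or as flat sheets. The set was a list of 36 genes that build, supply or gate the cilium, and a member was measured where a probe set of the array was annotated with that gene alone. By this rule 34 of the 36 genes were measured, by 70 of the 42924 probe sets tested and among 15115 genes in all, while KIF17 and TCTN1 are not analysed here. Where a gene had several probe sets, its values come from the probe set of highest average signal across the arrays.

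The cells of both groups were MDCK II tet-off cells, kept in serum-containing medium with G418, and both were grown until day 8 with type I collagen and released with collagenase. One condition was 3-dimensional collagen culture (3D, 6 arrays), in which the cells formed multicellular cysts, and the control condition was 2-dimensional collagen culture (2D, 6 arrays), in which they formed flat sheets. Each array carried RNA combined from 4 samples. The labels call the 6 arrays of each group biological replicates but leave unsaid how these pools were made. The p-values therefore speak of the spread from pool to pool, which may still be partly or wholly technical. All samples come from 1 cell line, and the labels do not say how many cells bore a cilium. The question was how expression in 3D differed from that in 2D.

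The primary cilium is a single, non-motile antenna that projects from the apical surface of kidney tubule cells and of MDCK cells. Its microtubules are extended and maintained by intraflagellar transport (IFT): trains of the IFT-B and IFT-A complexes are carried to the tip by kinesin-2 and back to the base by dynein-2. The BBSome is a coat-like complex that moves membrane proteins along with these trains, and the transition zone at the base acts as a gate for what enters and leaves. Cells take their cilium down before they divide, and inherited defects in many of these genes cause cystic kidneys and other ciliopathies in humans.

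Cilium assembly genes were mostly lower in 3D, by small amounts. Of the 34 measured members, 21 fell, 0 rose and 13 did not pass (limma, Benjamini-Hochberg adjusted p under 0.05 over all probe sets tested), against 22.9% of all genes that fell and 19.8% that rose. At an unadjusted limma p under 0.05, 22 members fell and 1, BBS7, rose, against 29.7% and 22.2% of all genes. The median log2 fold change over the 34 members was -0.22, beside -0.05 over all 15115 genes. The 6 values of 3D lay below all 6 of 2D for 13 members, an arrangement found in 9.49% of all genes, and the reverse was found for 0 members, against 13.2% of all genes. A fold change here is a difference of log2(intensity + 1) between 3D and 2D, and its standard error (SE) comes from the limma fit with 6 arrays in each group. In RNA of whole cultures, fewer cells with a given programme and less RNA per cell cannot be told apart.

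**Figure D1:**
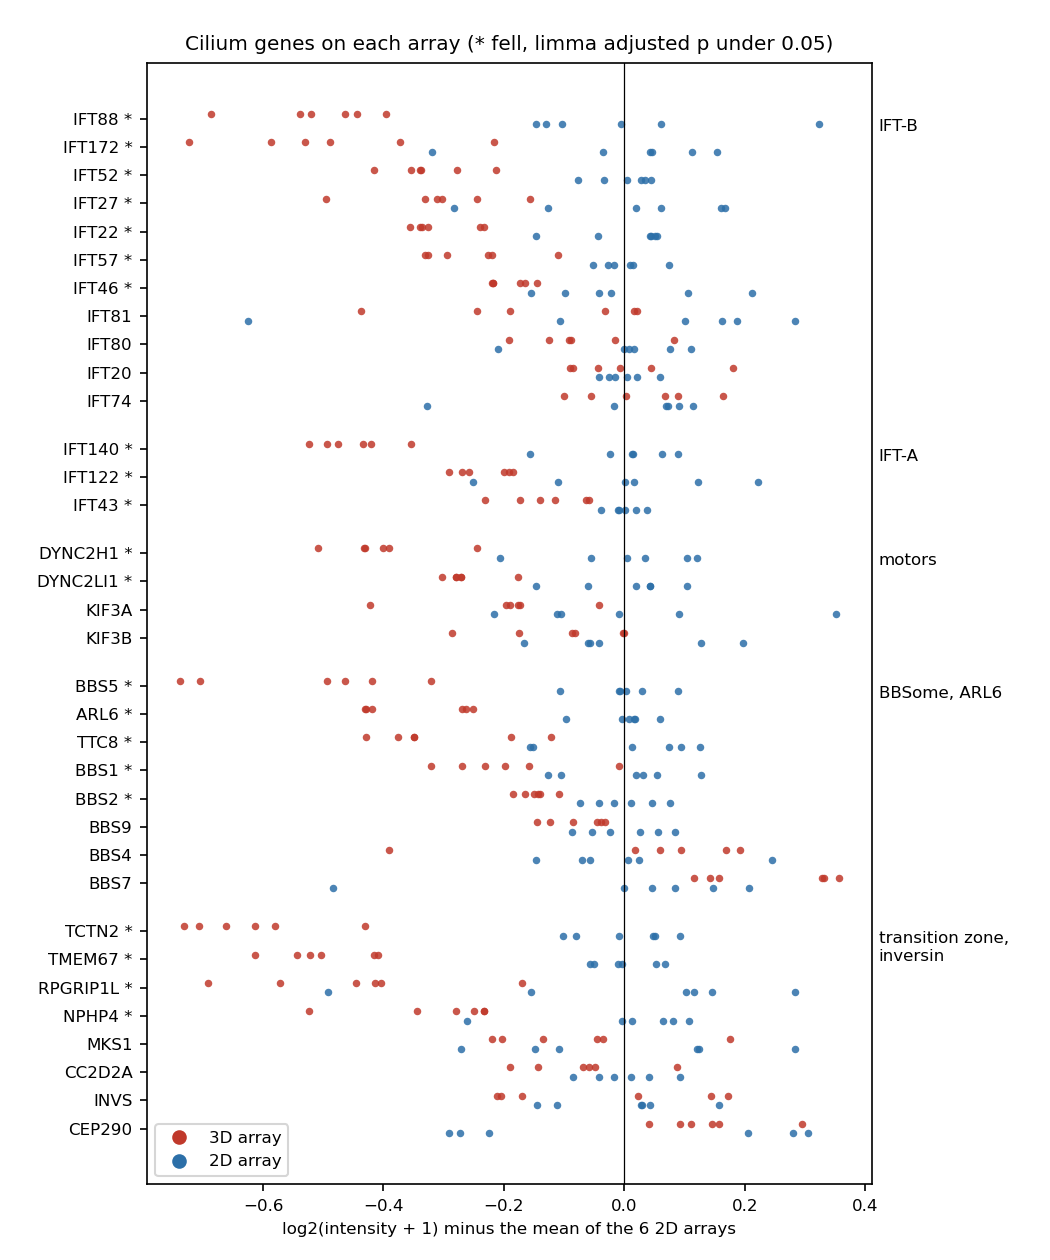
Each row is 1 measured member, by complex, and each point 1 array, as log2(intensity + 1) minus the mean of the 6 2D arrays of that gene; red points are 3D arrays and blue points 2D arrays, and a star marks a gene that fell. The 3D points of IFT88, IFT140, DYNC2H1, ARL6, TCTN2 and TMEM67 lie wholly to the left of the 2D points, while those of IFT20, IFT74, BBS4 and INVS are mixed with them.

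IFT-B, the complex that travels outward with kinesin-2, had 7 of 11 members lower in 3D and 4 that did not pass, with a median log2 fold change of -0.25. IFT88, a core subunit whose loss in the mouse gives polycystic kidneys, had log2 values from 7.78 to 8.07 in 3D (median 7.98) and from 8.32 to 8.79 in 2D (median 8.42). The groups did not overlap, and the level in 3D was 70.3% of that in 2D (log2 fold change -0.51, SE 0.08, limma adjusted p = 6.73e-05). All 4 probe sets of IFT88 fell, by 0.27 to 0.69.

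IFT172, the largest IFT-B subunit, ranged from 9.89 to 10.39 in 3D (median 10.10) and from 10.29 to 10.76 in 2D (median 10.65). The 3D values were lower, with some overlap, and the difference was -0.49 (SE 0.09, limma adjusted p = 0.000404). IFT52, a scaffold of the IFT-B core, ranged from 10.31 to 10.51 in 3D (median 10.39) and from 10.65 to 10.77 in 2D (median 10.74). Every 3D array was below every 2D array (-0.32, SE 0.05, limma adjusted p = 3.77e-05), and its other probe sets fell by 0.42 and 0.41.

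IFT27, a small GTPase of the complex, ranged from 7.90 to 8.24 in 3D (median 8.09) and from 8.11 to 8.56 in 2D (median 8.43), so the groups overlapped (-0.31, SE 0.08, limma adjusted p = 0.00537). Of its other probe sets, 1 fell by 0.27 and 1, at -0.04, did not pass (limma adjusted p = 0.573). The remaining falls were those of IFT22, a second small GTPase, by 0.31 (SE 0.05), of IFT57 by 0.25 (SE 0.05) and of IFT46 by 0.19 (SE 0.06). IFT22 and IFT57 did not overlap between the groups, and IFT46 did.

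Other IFT-B genes showed no shift past the test. IFT20, which also works at the Golgi in delivering ciliary membrane proteins, had a log2 fold change of -0.0002 (95% interval -0.11 to 0.11). IFT74 had 0.03 (-0.13 to 0.18) and IFT80 -0.07 (-0.20 to 0.06). IFT81, the partner with which IFT74 binds tubulin, had -0.14 with a wide interval of -0.42 to 0.13. Its lowest 2D value, 6.46 on replicate 6, lay below all 6 3D values, and without that array IFT81 fell (-0.27, limma adjusted p = 0.0258).

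IFT-A, the complex needed for the return journey, had 3 of 3 listed members lower, with a median of -0.23. Its subunits outside the member list, which did not fall, are given further below. IFT140, of its core, ranged from 9.30 to 9.47 in 3D (median 9.37) and from 9.67 to 9.91 in 2D (median 9.84). The groups were apart, with the 3D level at 73.2% of the 2D level (-0.45, SE 0.05, limma adjusted p = 2.88e-06), and its other probe sets fell by 0.19 and 0.44. IFT122, also of the core, ranged from 8.49 to 8.59 in 3D (median 8.55) and from 8.53 to 8.999 in 2D (median 8.79).

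The IFT122 groups touched at the lower end of 2D (-0.23, SE 0.07, limma adjusted p = 0.0127). IFT43, a peripheral subunit, changed least of the listed IFT-A members, with values of 9.33 to 9.50 in 3D (median 9.43) and 9.52 to 9.60 in 2D (median 9.56). Its groups did not overlap (-0.13, SE 0.04, limma adjusted p = 0.0258), but the call ended with median centring (limma adjusted p = 0.0814), without 2D replicate 2 (0.0514) and without 3D replicate 1 (0.0567). Its other probe sets had -0.10 and -0.11 and did not pass.

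The motors differed in how bright their probe sets were, and 2 of the 4 measured fell, with a median of -0.23. Both members of the list that belong to dynein-2, the return motor, were well measured and fell. DYNC2H1, the heavy chain, ranged from 9.91 to 10.18 in 3D (median 10.00) and from 10.21 to 10.54 in 2D (median 10.44). The groups did not overlap (-0.40, SE 0.06, limma adjusted p = 7.50e-05), and the second probe set fell by 0.34.

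DYNC2LI1, the light intermediate chain of the same motor, ranged from 9.32 to 9.44 in 3D (median 9.34) and from 9.47 to 9.72 in 2D (median 9.65). The groups did not overlap (-0.26, SE 0.05, limma adjusted p = 0.000504). All 4 of its probe sets fell.

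The kinesin-2 motor subunits KIF3A and KIF3B, which pull trains outward, were dim and did not pass. The level they were held against was the 95th percentile of 59 control probe sets, those for Bacillus subtilis genes and tags, 5.71 on the log2 scale on average. KIF3A ranged from 5.51 to 5.89 in 3D (median 5.74) and from 5.71 to 6.28 in 2D (median 5.87). It lay at or below the control level of the array on 1 of 6 3D arrays and 2 of 6 2D arrays (-0.20, SE 0.09, 95% interval -0.38 to -0.02, limma adjusted p = 0.0738), and without 2D replicate 2 it fell by 0.24 (limma adjusted p = 0.0376). KIF3B, 0.58 above the control level in its mean, had -0.11 (95% interval -0.25 to 0.04, limma adjusted p = 0.226). By the same measure 1 of the 4 probe sets of DYNC2LI1 was at or below the control level on all 12 arrays.

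The BBSome subunits and ARL6 showed 5 falls among 8 genes, with a median of -0.17. BBS5, a subunit that binds membrane phosphoinositides, ranged from 6.21 to 6.63 in 3D (median 6.47) and from 6.84 to 7.04 in 2D (median 6.95). The groups were apart, and the 3D level was 69.6% of the 2D level (-0.52, SE 0.07, limma adjusted p = 1.64e-05). Its dimmer probe set also fell, but lay at or below the control level on 6 of 6 3D arrays and 2 of 6 2D arrays. ARL6, the small GTPase that recruits the BBSome to membranes, ranged from 8.20 to 8.38 in 3D (median 8.29) and from 8.53 to 8.69 in 2D (median 8.64). These groups were also apart (-0.34, SE 0.05, limma adjusted p = 5.05e-05).

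TTC8, also known as BBS8, ranged from 7.33 to 7.64 in 3D (median 7.41) and from 7.60 to 7.89 in 2D (median 7.80), with the highest 3D value inside the 2D range (-0.30, SE 0.07, limma adjusted p = 0.00225). BBS1, the subunit that ARL6 binds, was dim, with 5.79 to 6.10 in 3D (median 5.90) and 5.99 to 6.24 in 2D (median 6.14). Its mean lay 0.30 above the control level, and the difference (-0.20, SE 0.06, limma adjusted p = 0.0162) did not pass with quantile normalization (-0.14, limma adjusted p = 0.109). BBS2 fell by 0.15 (SE 0.04) with no overlap between the groups, although its other probe sets, with -0.13 and -0.02, did not pass.

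BBS7, BBS9 and BBS4 did not pass. BBS7 was the member with the highest log2 fold change, at 0.24 (95% interval 0.03 to 0.44, limma adjusted p = 0.0601), and on 2D replicate 6 it had 8.50 against 8.99 to 9.19 on the other 2D arrays. Without that array the difference was 0.14 (limma adjusted p = 0.0793), with median centring BBS7 rose (0.26, limma adjusted p = 0.0497), and it also rose without 2D replicate 4 (0.28, limma adjusted p = 0.0370). BBS9 had -0.08 (95% interval -0.17 to 0.02), with a second probe set at 0.09, but with quantile normalization it fell by 0.16 (limma adjusted p = 0.0149). BBS4, which has a role at centriolar satellites, had 0.02 (95% interval -0.17 to 0.21).

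The transition zone genes held the largest fall of any member and also several genes with no call: of 8 measured, 4 fell, with a median of -0.19. TCTN2, a tectonic protein of the ciliary gate, ranged from 9.56 to 9.86 in 3D (median 9.65) and from 10.19 to 10.38 in 2D (median 10.31). The groups were widely apart, and the 3D level was 65.0% of the 2D level (-0.62, SE 0.06, limma adjusted p = 3.28e-07). A second TCTN2 probe set, with a mean 0.02 above the control level, had -0.03 (limma adjusted p = 0.687).

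TMEM67, or meckelin, a membrane receptor-like protein of the gate, ranged from 9.50 to 9.70 in 3D (median 9.60) and from 10.05 to 10.18 in 2D (median 10.10). No values overlapped (-0.50, SE 0.05, limma adjusted p = 4.85e-07), and its other probe set also had -0.50. RPGRIP1L, a scaffold of the zone, varied more, with 7.04 to 7.56 in 3D (median 7.30) and 7.24 to 8.01 in 2D (median 7.84).

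The RPGRIP1L groups overlapped (-0.45, SE 0.11, limma adjusted p = 0.00576). NPHP4, a nephronophthisis protein that binds RPGRIP1L, ranged from 7.09 to 7.38 in 3D (median 7.35) and from 7.35 to 7.72 in 2D (median 7.65). Its lowest 2D value, on replicate 2, fell inside the 3D range (-0.31, SE 0.07, limma adjusted p = 0.00200).

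MKS1, INVS, CEP290 and CC2D2A did not pass. MKS1, a B9-domain protein of the gate, had -0.08 (95% interval -0.27 to 0.12), and INVS, which marks the compartment just above the gate, had -0.04 (-0.21 to 0.12) with probe sets on both sides of 0. CEP290, a linker between microtubules and membrane in the zone, had 0.14 (-0.08 to 0.36), and its other probe sets lay at or below the control level on all 12 arrays. CC2D2A lay at or below the control level on all 12 arrays by both of its probe sets, so no fold is given.

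Many members were measured more than once. Of the 22 members with more than 1 probe set, all probe sets lay below 0 for 17, and all of them fell for 11. The matching shares over all genes are not given here. The 17 include CC2D2A, dim by both probe sets. The 11 include DYNC2LI1 and BBS5, each with 1 probe set whose mean lay below the control level. Probe sets differed in sign for 4 members (IFT20, IFT74, BBS9 and INVS), none of which passed with the probe set that stood for it, and no member had 1 probe set that fell and 1 that rose. Over the 70 probe sets, 40 fell, 0 rose and 30 did not pass, against 22.0% of all probe sets that fell and 16.7% that rose. Of the 70, 36 had a suffix (_s_at or _x_at) that marks possible hybridisation with more than 1 transcript. They include the probe sets whose values stand for 19 members, IFT172, DYNC2H1, BBS5 and RPGRIP1L among them.

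**Figure D2:**
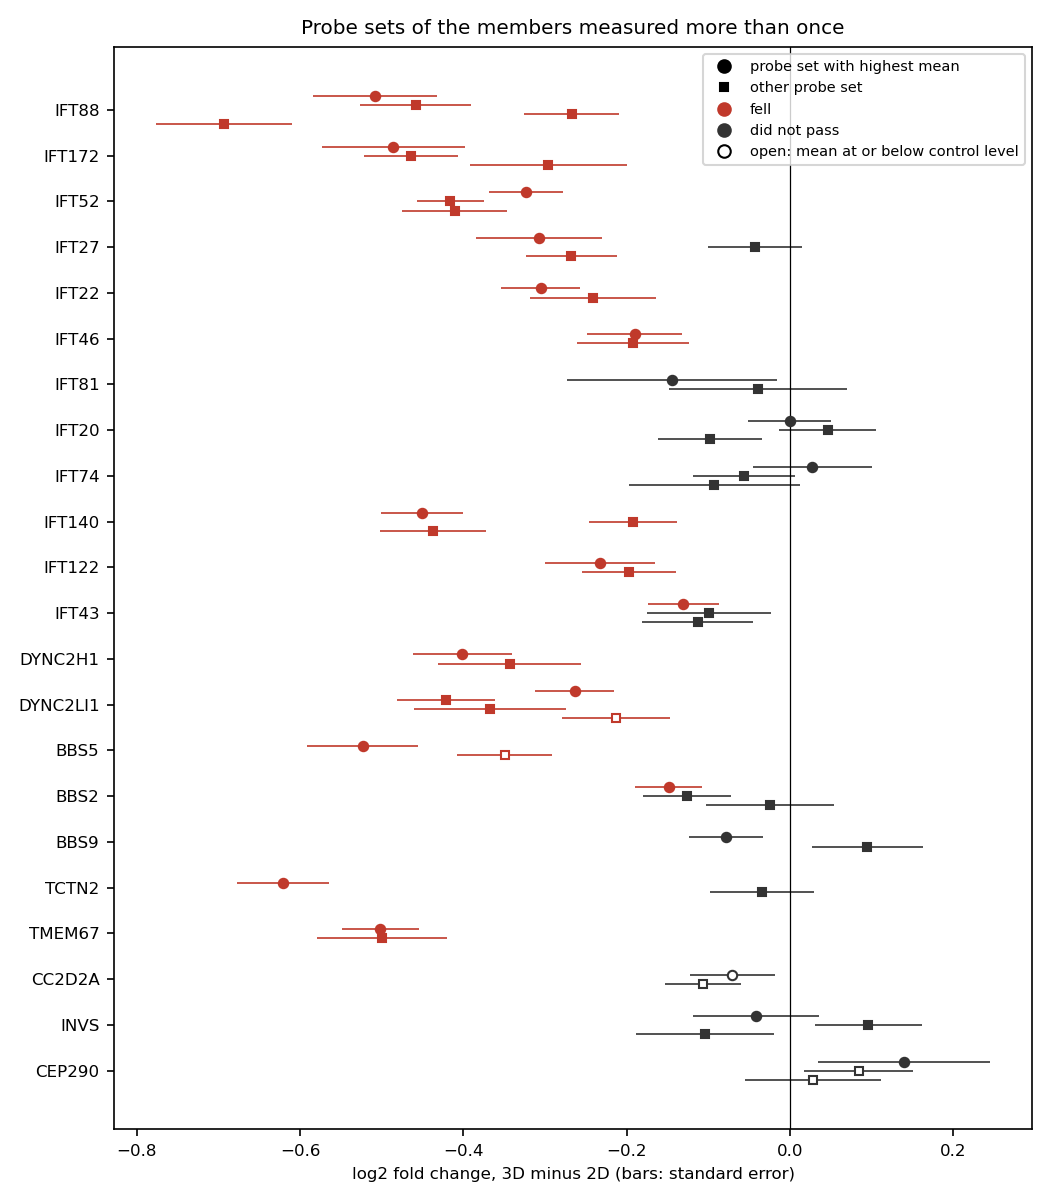
Each point is 1 probe set of a member measured more than once, with its log2 fold change (3D minus 2D) and standard error; circles mark the probe set with the highest mean, squares the others, red those that fell, and open symbols a mean at or below the control level. All 4 probe sets of IFT88 lie between -0.27 and -0.69, and both of TMEM67 at -0.50, whereas those of IFT20, BBS9 and INVS lie around 0.

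Small falls were weighed against the behaviour of dim genes, which shifted downward on the whole. Genes above the control level were split into 3 ranges of signal that held equal numbers of probe sets. Among the 2739 genes whose mean was at or below the control level, the median log2 fold change was -0.09, and 19.9% fell while 2.77% rose. In the low range above it, the median was also -0.09, with 25.7% falling and 8.54% rising. The middle range had a median of -0.01 (21.2% fell, 25.4% rose) and the upper range 0.03 (24.1% fell, 33.3% rose). A value near -0.1 at a dim level is thus close to the median of all genes there.

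Most of the cilium genes were not dim. By mean level, 18 of the 34 lay in the upper range, with log2 means above 8.51, and 12 in the middle range. In the upper range 13 of 18 members fell, against the 24.1% of all genes there, and in the middle range 7 of 12, against 21.2%. Of the 3 members in the low range, KIF3A, KIF3B and BBS1, 1 fell, against 25.7% of genes at that level, and CC2D2A was the single member at or below the control level.

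The size of the falls separated members further. Falls of at least 0.25 were found for 16 members, all of them in the middle or upper range, against 9.59% of all genes. Falls of at least 0.5 were found for TCTN2, BBS5, IFT88 and TMEM67, against 1.63% of all genes. The 5 smaller falls, of IFT43, BBS2, IFT46, BBS1 and IFT122, lay between 0.13 and 0.23. These are the 5 that did not pass when limma's treat tested each change against 0.1 in place of 0, a test added after the drift was seen, under which 16 members and 7.97% of all genes fell. Counting falls of at least 0.32 alone left 10 members, against 5.07% of all genes.

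Most calls were kept when the drift was removed. With cyclic loess normalization, added after the drift was seen, the medians at the 4 levels lay between -0.02 and -0.003. Under it 20 of the 34 members fell, all among the 21, against 17.5% of all genes, and the members' median was -0.25. BBS1 was the call that ended (-0.12, limma adjusted p = 0.15).

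**Figure D3:**
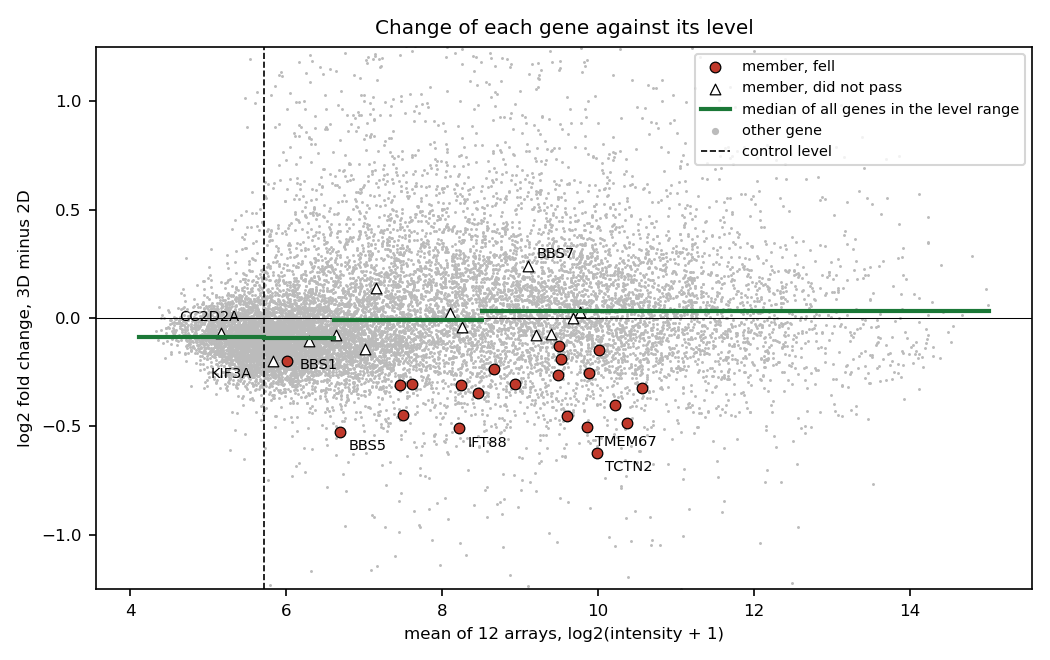
Each gene is placed by its mean log2(intensity + 1) over the 12 arrays and its log2 fold change (3D minus 2D); grey points are other genes, red circles members that fell, open triangles members that did not pass, green lines the median of all genes in each level range, and the dashed line the control level, and 187 genes beyond the plotted range are not drawn. KIF3A, BBS1 and CC2D2A lie near or below the control level, where the grey points themselves sit below 0, while TCTN2, TMEM67 and IFT88 lie far from it and well below the median.

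Array by array, the log2 level averaged over the members was 8.31 to 8.44 on the 3D arrays (mean 8.37 ± 0.05) and 8.44 to 8.66 on the 2D arrays (mean 8.59 ± 0.08, SD, n = 6 each). The array of 2D replicate 6 stood apart, with 30 of the 34 members below their 2D mean and a members' mean of 8.44, against 8.58 to 8.66 on the other 2D arrays. Without it 22 members fell and the median was -0.26. Leaving out any 1 of the 12 arrays gave 20 to 22 falls.

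A sign of RNA integrity moved with culture. Over 4 control pairs for actin and GAPDH, the log2 ratio of 5-prime over 3-prime signal averaged -0.54 ± 0.17 on the 3D arrays, against -0.92 ± 0.14 on the 2D arrays (SD, n = 6 each; p = 0.00866, two-sided exact permutation test), and 3D replicate 2, at -0.88, lay among the 2D arrays. With this ratio as a covariate 13 members fell, 12 of them among the 21, against 8.33% of all genes, and the members' median was -0.23. The calls of 9 members ended, and their values moved unequally. IFT27 had -0.10 with the covariate, against -0.31 without it, IFT46 -0.05 against -0.19, and IFT57 -0.14 against -0.25. IFT172 had -0.37 against -0.49, TTC8 -0.22 against -0.30, and NPHP4 -0.22 against -0.31. BBS2 stayed at -0.15, while IFT43 (-0.19 against -0.13) and IFT122 (-0.28 against -0.23) lay further below 0. Standard errors were larger with the covariate for all 9. They were 0.07 for IFT43 and 0.11 for IFT122, 0.14 against 0.09 without it for IFT172, and 0.07 against 0.04 for BBS2. BBS4 fell with the covariate (-0.32, limma adjusted p = 0.0295). Its value on 3D replicate 2, the array with the outlying ratio, was 7.70, against 8.11 to 8.29 on the other 3D arrays. Without that array and without the covariate, BBS4 had 0.11.

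**Figure D4:**
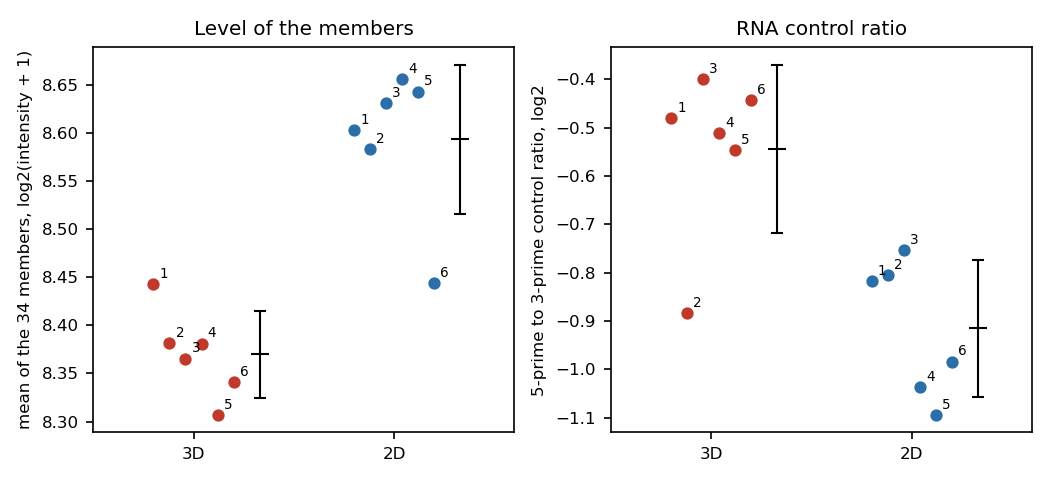
Left, the mean log2(intensity + 1) of the 34 members on each array; right, the log2 5-prime over 3-prime ratio from the actin and GAPDH controls; red points are 3D and blue points 2D arrays, numbered by replicate, with the mean and SD beside them. The members' means span 8.31 to 8.44 in 3D and 8.44 to 8.66 in 2D, with 2D replicate 6 lowest of its group, and 3D replicate 2 has a ratio within the range of the 2D arrays.

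The cells carried epithelial markers on every array. All 10 kidney epithelium markers lay above the control level, with EPCAM at 13.38 ± 0.05 in 3D against 13.41 ± 0.10 in 2D (SD, n = 6 each) and PAX8 at 8.76 ± 0.18 in 3D against 8.82 ± 0.13 in 2D. Of the 10, 4 fell, MAL2 by 0.56, OCLN by 0.24, TJP1 by 0.19 and CDH16 by 0.19, and 3 rose, CDH1 by 1.02, KRT8 by 0.64 and KRT18 by 0.18. The shares over all genes were 22.9% falling and 19.8% rising. Markers of other cells were low, with summed intensities over 8 fibroblast genes of 460 to 506 in 3D and 486 to 569 in 2D, over 6 leukocyte genes of 482 to 559 in 3D and 503 to 559 in 2D, and over 5 endothelial genes of 349 to 390 in 3D and 386 to 429 in 2D. COL1A2 and PECAM1 were at or below the control level on all 12 arrays, and no leukocyte marker was.

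The medians of these lists were -0.12 for fibroblast, -0.16 for leukocyte and -0.13 for endothelial genes, with 2, 3 and 2 genes called lower and CD14, a receptor also made outside leukocytes, called higher by 0.43. Of 11 multiciliated cell markers, which build motile cilia, 8 fell and 0 rose, with a median of -0.20 and a summed intensity of 862 to 940 in 3D and 1002 to 1082 in 2D. Over all genes, 22.9% fell and 19.8% rose. FOXJ1, the master factor of motile cilia, DNAI2 and RSPH4A were at or below the control level on all 12 arrays. The largest of these falls were those of DNAI1 (0.46), TEKT1 (0.31) and DNAH9 (0.25). The part of these markers in the falls of the cilium genes was not tested.

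Other genes of the same machines, listed separately, were read from the same fit. Of 13 further IFT and dynein-2 genes, 5 fell and 1, TTC21B, rose, beside 22.9% and 19.8% of all genes, with a median of -0.10. TTC21B, WDR19 and WDR35 are further IFT-A subunits. TTC21B rose by 0.22, while WDR19 (-0.16) and WDR35 (-0.10) did not pass. DYNLT2B, a dynein-2 light chain, ranged from 11.73 to 11.92 in 3D (median 11.80) and from 12.43 to 12.60 in 2D (median 12.52), a fall of 0.70 (SE 0.05, limma adjusted p = 8.64e-09). DYNC2I1, an intermediate chain of the same motor, fell by 0.42, and TTC26, an IFT-B subunit, by 0.36. The dynein chains DYNC2I2 (-0.09), DYNLRB1 (0.05), DYNLL1 (-0.09) and DYNLT1 (-0.09) did not pass.

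Of 15 further transition zone genes, 9 fell and 0 rose, with a median of -0.26, beside 22.9% and 19.8% of all genes. RPGR, a regulator of small GTPases at the gate, ranged from 8.02 to 8.25 in 3D (median 8.09) and from 8.70 to 9.26 in 2D (median 9.04), a fall of 0.92 (SE 0.08, limma adjusted p = 1.71e-07). B9D1, a partner of MKS1, fell by 0.56 and TMEM17 by 0.47. Among 10 further BBSome, chaperonin and ciliary GTPase genes 5 fell and 2 rose, beside the same 22.9% and 19.8%, with a median of -0.12. LZTFL1, which regulates BBSome entry, fell by 0.67, while PDE6D, a carrier of prenylated ciliary proteins, rose by 0.45 and the GTPase RAB23 by 0.44. TULP3, another of the 5 falls, lay at or below the control level on all 12 arrays.

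Of 23 basal body, distal appendage and cilium initiation genes, which act before the axoneme is built, 8 rose and 5 fell, with a median of -0.04, beside 19.8% of all genes that rose and 22.9% that fell. CEP83, which anchors the mother centriole to membrane, ranged from 7.50 to 7.61 in 3D (median 7.59) and from 6.79 to 7.35 in 2D (median 7.15), a rise of 0.48 (SE 0.09, limma adjusted p = 0.000503). The GTPase RAB8A rose by 0.47 and the membrane transport motor MYO5A by 0.46.

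Genes named for taking cilia down were higher more often than lower, and several of them also act in mitosis. Of 9 such genes, 5 rose and 1 fell, with a median of 0.20, beside 19.8% and 22.9% of all genes. AURKA, the kinase that triggers disassembly, ranged from 8.28 to 8.47 in 3D (median 8.33) and from 7.31 to 7.75 in 2D (median 7.39), a rise of 0.91 (SE 0.07, limma adjusted p = 4.09e-08). The kinases NEK2 and PLK1 rose by 1.36 and 1.31, and NEDD9, an activator of AURKA, fell by 0.34.

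The general mitosis list moved with culture in the same arrays. Of its 13 genes 12 rose and 0 fell, with a median of 1.76 and a summed intensity of 5063 to 5506 in 3D and 2410 to 3178 in 2D, and NUSAP1, TOP2A and BUB1B rose most (2.01, 1.91 and 1.89). The part of cell division in the falls of the cilium genes was not tested. Of 15 tubulin and tubulin modification genes, 8 rose and 2 fell, with a median of 0.32. For this list and the mitosis list, the shares over all genes were 19.8% rising and 22.9% falling. TUBB2A rose by 1.66, STMN1, which binds free tubulin, by 1.246 and TUBB by 0.74, whereas AGBL5, a tubulin deglutamylase, fell by 0.66 (SE 0.05).

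The factors and signals tied to cilia showed small shifts. Of 10 RFX and FOXJ1 family and related factors, 2 fell and 1 rose, with a median of -0.12, beside the same 22.9% and 19.8% of all genes. RFX2 and RFX3, which drive ciliary genes, had 0.06 (SE 0.06) and -0.11 (SE 0.11) and did not pass, while RFX5, best known for class II antigen presentation genes, rose by 0.32. RFX4 fell by 0.24, and FOXJ1 was called lower (limma adjusted p = 0.00588) while at or below the control level on all 12 arrays, so no fold is given.

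Of 14 Hedgehog pathway genes, whose signal passes through the cilium, 4 fell and 1 rose, with a median of -0.10, again beside 22.9% and 19.8% of all genes, and 3 lay at or below the control level on all 12 arrays. KIF7, a kinesin that organises the cilium tip, rose by 0.32, EVC2 fell by 0.24 and GLI3 by 0.19. GLI3 was dim, with a mean 0.41 above the control level. EVC, another of the 4 falls, was among the 3 at or below that level on all 12 arrays. GLI1 and PTCH1 are common readouts of the pathway. GLI1 had -0.09 (SE 0.06) and did not pass, and PTCH1 lay at or below the control level on 6 of 6 3D and 5 of 6 2D arrays and did not pass.

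**Figure D5:**
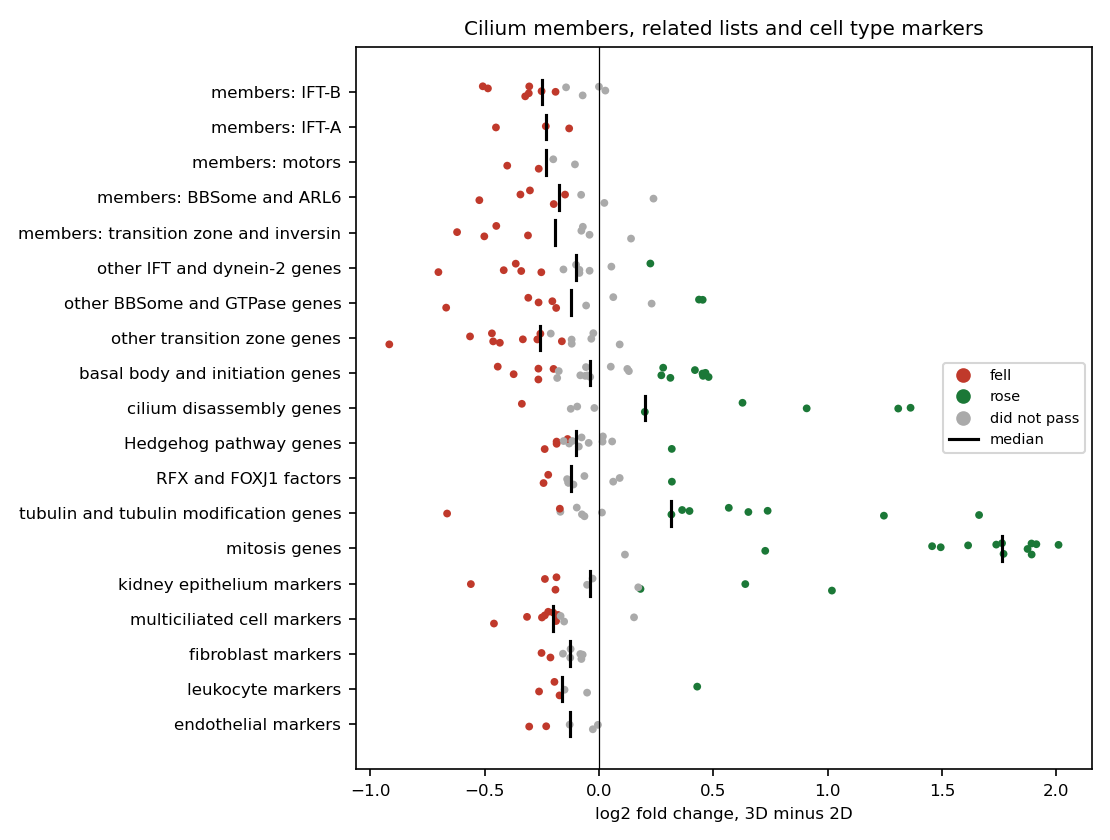
Each point is 1 gene, with its log2 fold change (3D minus 2D) on the horizontal axis, by complex for the members and by list for related genes and cell type markers; red points fell, green points rose, grey points did not pass, and the black bar is the median. The medians of the member complexes lie between -0.25 and -0.17, that of the further transition zone genes at -0.26 and that of the mitosis genes at 1.76.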

How the data were processed

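RNA was measured on 12 one-colour Affymetrix arrays. The authors deposited a linear intensity for each probe set and array, and the submitters' processing notes name GCRMA. Its version, and whether values were scaled afterwards, is not given in the sources used here. No further normalization was applied, and log2(intensity + 1) was used, which understates fold changes of dim genes slightly. With 16 added in place of 1, the members' median was -0.21, against -0.22. Of 43035 probe sets, 111 Affymetrix controls were left out. Genes were named from the platform annotation, and RefSeq gene identifiers matched 67 of the 70 member probe sets and changed 0 symbols. Tests used limma 3.58.1 (lmFit, eBayes; R 4.3.3), two-sided, with culture as the only term and Benjamini-Hochberg adjustment over 42924 probe sets. The fitting code was checked on simulated arrays with known changes. Probe sets were ranked by their mean over all arrays against the control level, and those above it were split into 3 equal ranges. The number of arrays limits the precision.

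Members and lists were chosen with earlier results of these data known. Each member is named. Lowest, median and highest values are given for up to 4 called members per complex with the largest change, and for IFT88 and KIF3A, and other lists name up to 3 called genes. RFX2, RFX3, GLI1, PTCH1, TTC21B, NEDD9, AGBL5, CD14 and the epithelial markers with values were chosen after their values were seen. So were WDR19, WDR35, DYNC2I2, DYNLRB1, DYNLL1 and DYNLT1. Alternatives were other normalizations, filters, pseudocount, priors, weights for arrays, a block for replicate number, the RNA ratio as a covariate, leaving out arrays, a minimum change, and the mean of a gene's probe sets. Figures used matplotlib 3.10.9 in Python 3.11.15.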

Additional observations from a re-analysis of the deposited data

Results flagged for a closer look

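Among 70 sets of 6 values checked for a single array far from the rest (the 34 members and the RNA control ratio in each group), 7 held one, and chance alone gives about 1 in 20. On 2D replicate 6, IFT74 had 9.43 against 9.74 to 9.87 on the other 2D arrays, IFT80 had 9.22 against 9.43 to 9.54, and BBS7 had 8.50 against 8.99 to 9.19. On 3D replicate 2, BBS4 had 7.70 against 8.11 to 8.29 on the other 3D arrays, and the log2 5-prime to 3-prime ratio was -0.88 against -0.55 to -0.40. DYNC2LI1 had 9.44 on 3D replicate 1 against 9.32 to 9.35 on the other 3D arrays, and NPHP4 had 7.35 on 2D replicate 2 against 7.61 to 7.72 on the other 2D arrays.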

How the results depend on the processing

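The count of 21 lower members stayed between 20 and 22 under every alternative other than 3: 13 with the RNA ratio as a covariate, 10 with a minimum log2 change of 0.32 and 16 with treat. Member probe sets fell in 26 and 21 cases with the covariate and the minimum change. All probe sets gave 3624 falls and 4303 rises with the covariate, 2105 and 3989 with the minimum change, and 3249 and 4702 with treat. Member genes and probe sets that rose numbered 1, BBS7, with median centring, with the replicate block and without 2D replicate 4. The members' median was -0.29 with quantile normalization. BBS4 had -0.32 with the covariate, against 0.02, and 3D replicate 2 stood far from the other 3D arrays in both BBS4 and the ratio. Leaving out each array gave 20 to 22 lower and 0 to 1 higher members, 38 to 41 lower and 0 to 1 higher probe sets, a median of -0.26 to -0.20, and 7430 to 11016 lower and 6453 to 8033 higher probe sets in all. Of the 21 calls, 11 passed under all 25 alternatives other than the minimum change and 10 did not under at least 1; the cause was not tested.

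The deviations of arrays with the same number correlated at 0.0008 to 0.36, not above 0.1 for every number, and the labels do not say that a number marks anything shared, so the numbers were not taken to pair the arrays. With the replicate block 22 members fell and 1 rose, and KIF3A (limma adjusted p = 0.0271) and BBS7 (limma adjusted p = 0.0155) passed. The control level limits what KIF3A, KIF3B, BBS1 and CC2D2A can show.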
